A study of Sus scrofa with 16 samples.

Results

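The smooth muscle and myofibroblast contractile genes were followed in left ventricular tissue of young pigs. They were 10 of the 22629 genes listed, taken by their symbols: *ACTA2*, *TAGLN*, *CNN1*, *MYH11*, *MYL9*, *ACTG2*, *SMTN*, *CALD1*, *LMOD1* and *DES*. All 10 were listed and had enough counts to be tested. RNA came from 8 Yorkshire-Landrace pigs operated on at about a month of age, 4 with ischemia/reperfusion (IR) injury and 4 with sham surgery, with 2 females and 2 males per surgery. In IR pigs the left anterior descending artery (LAD) was closed for 1 h and then reopened, while in sham pigs the artery was not closed. Heparin is described for the IR pigs only. The hearts were collected 4 weeks later, and every pig contributed a scar zone and a border zone sample, which makes 16 samples in 4 groups. The scar zone of a sham pig is the matching region of a heart that was not made ischemic. Scar zone samples of IR pigs were not pure scar, since some of the surrounding heart muscle was taken with it.

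Smooth muscle cells shorten by sliding filaments of smooth muscle actin along filaments of smooth muscle myosin, and calponin, caldesmon, transgelin, smoothelin and leiomodin bind the actin filaments. Fibroblasts of a healing infarct can switch on part of the same set of genes, above all *ACTA2*, and are then called myofibroblasts, whereas mature vessel walls keep the full set. Serum response factor (SRF), with its coactivators myocardin and the myocardin-related factors, drives many of these genes, and desmin is also a main intermediate filament of cardiomyocytes.

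Between IR and sham pigs, *CNN1*, which encodes the actin-binding protein calponin 1, was the member with the largest fold change in both zones with all pigs included. Its mean in scar tissue was 149 ± 93.6 CPM after IR, against 66.3 ± 21.6 CPM after sham surgery (SD, n = 4 pigs each), CPM being counts relative to the TMM-scaled library total. Border tissue held 180 ± 188 CPM after IR and 50.3 ± 9.53 CPM after sham surgery. The myofibroblast marker *ACTA2* averaged 144 ± 45.7 CPM in scar tissue after IR, against 132 ± 52.0 CPM after sham surgery, a difference within the spread between pigs. No member passed the adjusted threshold, and *CNN1* was the only member past an unadjusted p of 0.05 together with a fold change of 2, in either zone.

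The sum of estimated counts ran from 15427663 to 49045206 per sample, and the border zone sample of IR pig 11 was the deepest. The members had between 24 estimated counts (*ACTG2*) and 406719 (*DES*) in a sample. Cardiomyocyte markers summed to between 63034 and 103998 CPM, so every sample held ventricular muscle RNA. The scar zone sample of IR pig 14, labelled female, held the Y-linked transcript *DDX3Y* at 4.48 CPM, against 0.389 to 1.23 CPM in the other 7 female samples and 68.4 to 103 CPM in the 8 male samples. *KDM5D*, also Y-linked, was at 0.408 CPM there, 0 in the other 7 female samples and 4.27 to 10.1 CPM in the males. The border zone sample of pig 14 is among those 7. Values without this pig are given where they changed a direction or a call between IR and sham pigs or between the sexes. Without it the log2 fold change of IR over sham pigs was 0.20 for *MYH11* in the scar zone, and 0.066 for *TAGLN* and 0.089 for *LMOD1* in the border zone, each opposite in sign to the value with all pigs. Each of these signs also changed with some other pig left out. The actin genes encode near-identical proteins, reads can be shared among them, and the effect of this on their values was not tested. Estimated counts lay within 0.05 of a whole number in 13 of 16 samples for *ACTA2* and in all 16 for *ACTG2*, but in 2 for the skeletal actin *ACTA1* and in 7 for the cardiac actin *ACTC1*.

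Compared per length, as TPM (transcripts relative to all transcripts of the sample), *DES* was by far the highest member, with a median of 2619 TPM over the 16 samples. *DES* made up between 79.5% and 89.3% of the summed TPM of the 10 genes in a sample. *MYL9*, the regulatory light chain of smooth muscle myosin, followed with a median of 123 TPM. Then came *ACTA2* with a median of 90.0 TPM, *TAGLN* with 88.2, *CNN1* with 59.0, *CALD1* with 56.0 and *SMTN* with 51.1 TPM. The lowest were *MYH11* with a median of 7.52 TPM, *ACTG2* with 3.52 and *LMOD1* with 2.15 TPM. Only 2 steps of this order held in all 16 samples, *DES* above *MYL9* and *SMTN* above *MYH11*. The other neighbours changed places, *CNN1* lying above *CALD1* in 7 samples and *ACTA2* above *TAGLN* in 9. The heavy chain *MYH11*, the gene most restricted to mature smooth muscle, thus stood well below *ACTA2* in level per length.

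**Figure D1:**
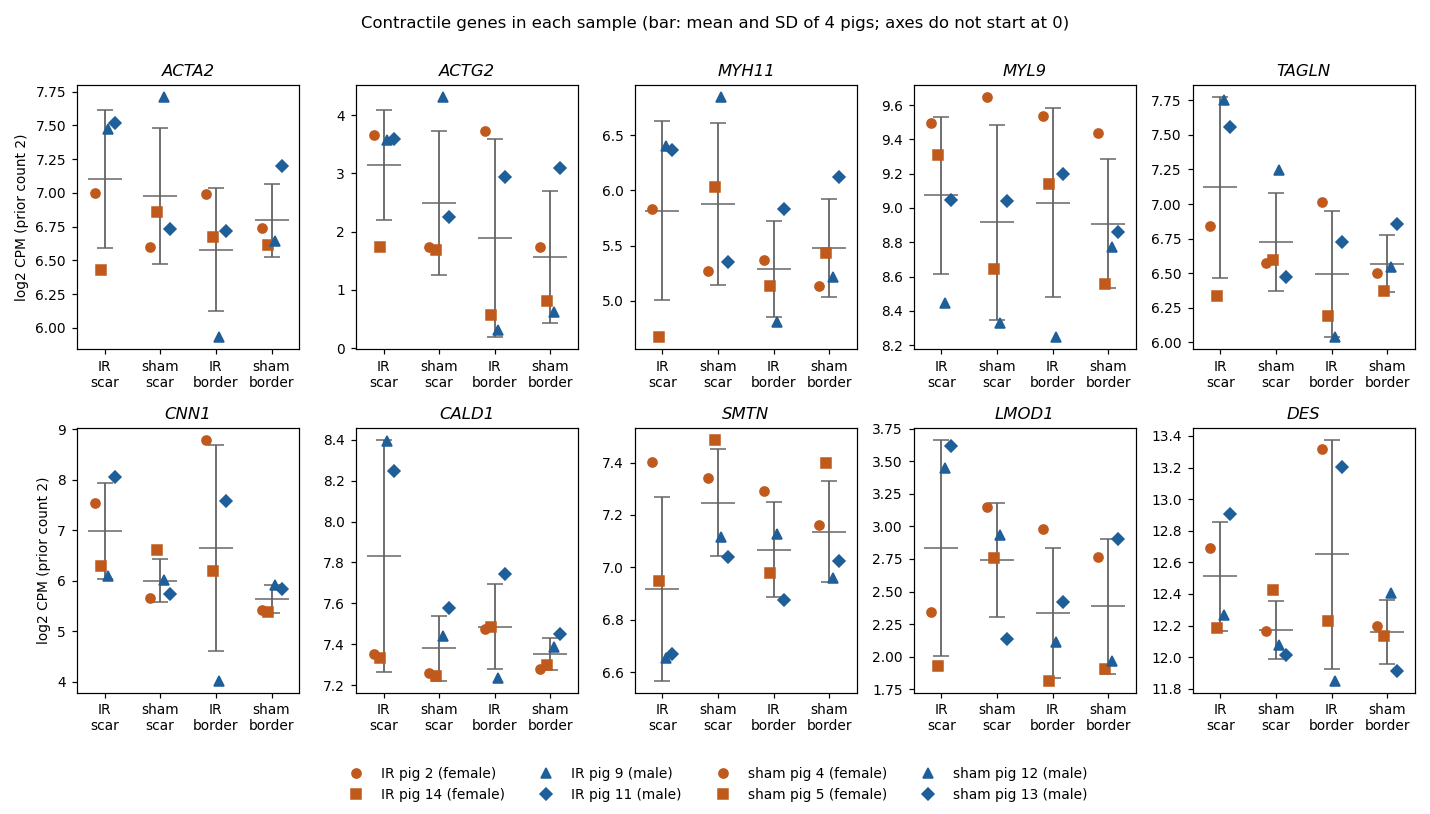
Level of each of the 10 genes in every sample, as log2 CPM with a prior count of 2, by surgery and zone. Points are samples, coloured by sex and shaped by pig, and bars give the mean and SD of 4 pigs. The points of IR and sham pigs overlap for every gene in both zones, and *CNN1* in the IR border zone spans from 16.2 to 441 CPM.

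The smooth muscle actin *ACTA2* was at 128 and 85.9 CPM in scar tissue of IR pigs 2 and 14, both female, and at 177 and 183 CPM in that of the males 9 and 11. Sham pigs held 97.0 and 116 CPM in the females 4 and 5, and 209 and 106 CPM in the males 12 and 13. The highest CPM value of all 16 samples thus belonged to a sham pig, and the groups overlapped. In TPM the scar zone of IR pig 9 was highest, at 223 against 181 in sham pig 12. Border zone values of *ACTA2* were 127, 102, 60.9 and 105 CPM for IR pigs 2, 14, 9 and 11, and lay between 97.8 and 147 CPM for sham pigs. Its log2 fold change between IR and sham pigs was 0.12 (standard error 0.30) in the scar zone and -0.19 (standard error 0.22) in the border zone. The direction in the scar zone rested on single pigs, and the log2 fold change ran from -0.013 to 0.42 with each pig left out in turn.

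*ACTG2* encodes the gamma actin of visceral smooth muscle. It was the most uneven member after *CNN1*, its highest sample being 16.9-fold above its lowest. In the IR scar zone it was at 12.6, 3.26, 11.9 and 12.03 CPM in pigs 2, 14, 9 and 11, and in the sham scar zone at 3.27, 3.12, 19.8 and 4.67 CPM in pigs 4, 5, 12 and 13. Thus 3 IR pigs and 1 sham pig held more than 10 CPM. In border tissue IR pigs were at 13.1, 1.40, 1.17 and 7.60 CPM and sham pigs at 3.26, 1.69, 1.46 and 8.47 CPM, so both groups held low and high pigs. Its log2 fold change was 0.37 (standard error 0.64) in the scar zone and 0.65 (standard error 0.79) in the border zone. In the scar zone it was 1.43 without sham pig 12, and in the border zone it was -0.11 without IR pig 2.

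Of the myosin genes, *MYH11* was at 56.9, 25.4, 84.2 and 82.6 CPM in the scar zone of IR pigs 2, 14, 9 and 11, and at 38.5, 65.2, 115 and 40.8 CPM in sham pigs 4, 5, 12 and 13. In CPM the highest sample was that of sham pig 12, as for *ACTA2* and *ACTG2*. In TPM the scar zone of IR pig 9 was highest for *MYH11*, at 22.4 against 21.0 in sham pig 12. Border zone values were 28.0 to 57.0 CPM in IR and 35.1 to 69.3 CPM in sham pigs. The log2 fold change was -0.051 (standard error 0.43) in the scar zone, where it was 0.13 on the TPM scale, and -0.19 (standard error 0.26) in the border zone. In scar tissue *MYL9* averaged 558 ± 160 CPM after IR, against 512 ± 211 CPM after sham surgery. The border zone means were 549 ± 182 CPM after IR and 493 ± 139 CPM after sham surgery (SD over 4 pigs each). Its values moved with the pig rather than with the zone, the difference of scar minus border zone within a pig running from -0.44 to 0.21 on the log2 scale. Sham pig 4 and IR pig 2 had the highest *MYL9* values in both zones.

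Calponin 1 inhibits the myosin ATPase when bound to actin, and its gene *CNN1* separated the IR pigs from each other. In the IR scar zone *CNN1* was at 185, 78.0, 67.7 and 265 CPM in pigs 2, 14, 9 and 11, against 50.4, 97.4, 64.0 and 53.2 CPM in sham pigs 4, 5, 12 and 13. Pigs 2 and 11 lay above all sham pigs, and pigs 14 and 9 lay among them. In the IR border zone it was at 441, 73.1, 16.2 and 192 CPM in the same order, against 42.9, 41.4, 60.1 and 56.7 CPM in sham pigs. There pigs 2, 14 and 11 lay above every sham pig, and pig 9 lay below every sham pig, with the lowest *CNN1* value of all samples.

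The log2 fold change of *CNN1* was 1.17 (standard error 0.43) in the scar zone, with an unadjusted p of 0.0223 and an adjusted p of 0.438 (edgeR quasi-likelihood test, Benjamini-Hochberg adjusted). The border zone value was 1.85 (standard error 0.73), with an unadjusted p of 0.0295 and an adjusted p of 0.988 from the same edgeR test. The mean difference of log2 CPM, which gives every pig the same weight, was 0.99 in the scar zone (two-sided exact permutation test, n = 4 pigs each, p = 0.114) and 1.01 in the border zone (exact permutation test, p = 0.343). On the log2(TPM + 1) scale the scar zone difference was 1.13 (exact permutation test, p = 0.0571). Adjusted over the 30 such comparisons of the members, both exact permutation tests gave p = 0.949. IR pig 2 weighed on the border zone value, which was 0.89 without it and no longer past the unadjusted p, and IR pig 11 weighed on the scar zone value, which was 0.74 without it. The scar zone value also missed the unadjusted p without IR pig 2 or 11 or sham pig 4, 12 or 13, and in 1 fit of all 16 samples, with edgeR p-values from 0.0502 to 0.0948. The border zone value also missed it without sham pig 4, 5 or 13, with sex as a covariate and with 1 factor of unwanted variation, at edgeR p-values from 0.0528 to 0.0804, and with limma on log2(TPM + 1), where it was 1.01. Without IR pig 14 the log2 fold changes were 1.38 for the scar zone and 2.11 for the border zone.

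Among the other actin-binding members, *TAGLN*, which encodes transgelin (SM22 alpha), was at 114, 80.6, 215 and 188 CPM in the scar zone of IR pigs 2, 14, 9 and 11. In sham pigs 4, 5, 12 and 13 it was at 95.4, 96.7, 152 and 88.7 CPM. Both male IR pigs lay above all sham pigs, and the female IR pig 14 lay below them. The log2 fold change was 0.47 (standard error 0.31) in the scar zone and -0.033 (standard error 0.22) in the border zone, where IR pigs were at 65.6 to 129 CPM and sham pigs at 82.9 to 116 CPM.

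*CALD1* encodes caldesmon, whose long form belongs to smooth muscle and whose short form is found in most cells, and the gene-level values do not separate the forms. Scar tissue held 163 and 161 CPM in the female IR pigs 2 and 14, and 336 and 304 CPM in their male counterparts 9 and 11. The sham scar zone values were 153, 152, 173 and 191 CPM, so the male IR pigs lay well above and the female IR pigs lay within the sham range. The log2 fold change was 0.53 (standard error 0.25, unadjusted p = 0.0606 in the edgeR test). All 8 border zone samples lay between 151 and 214 CPM, at a log2 fold change of 0.14 (standard error 0.13), or -0.025 on the TPM scale.

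*SMTN*, which encodes smoothelin of contractile smooth muscle, was the most even member, its highest sample being 1.78-fold above its lowest. Scar zone values were 169, 123, 101 and 102 CPM in IR pigs 2, 14, 9 and 11, against 162, 179, 139 and 132 CPM in sham pigs 4, 5, 12 and 13, so 3 IR pigs lay below all sham pigs and pig 2 lay among them. Its log2 fold change was -0.30 (standard error 0.19) in the scar zone and -0.074 (standard error 0.14) in the border zone. On the log2(TPM + 1) scale the scar zone value was -0.14, with 2 IR pigs below all sham pigs. The median over all genes was 0.15 on that scale. *LMOD1*, which encodes the actin nucleator leiomodin 1, was at 4.99, 3.74, 10.8 and 12.2 CPM in the scar zone of IR pigs 2, 14, 9 and 11, and at 8.77, 6.67, 7.55 and 4.32 CPM in sham pigs 4, 5, 12 and 13. The male IR pigs were the highest and the female IR pigs among the lowest of the 8. Its log2 fold change was 0.24 (standard error 0.38) in the scar zone and -0.057 (standard error 0.32) in the border zone.

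Desmin ties neighbouring myofibrils together at their Z-discs. In the scar zone *DES* was at 6608, 4644, 4938 and 7668 CPM in IR pigs 2, 14, 9 and 11, and at 4596, 5511, 4328 and 4125 CPM in sham pigs 4, 5, 12 and 13. Border zone values were 10226, 4801, 3696 and 9430 CPM in IR pigs and 4687, 4486, 5418 and 3847 CPM in sham pigs. IR pigs 2 and 11 lay above every sham pig in both zones, as they did for *CNN1*, and IR pig 9 had the lowest border zone value of both genes. The log2 fold change of *DES* was 0.36 (standard error 0.20) in the scar zone and 0.61 (standard error 0.31) in the border zone, with adjusted p of 0.496 and 0.988 (edgeR quasi-likelihood test, Benjamini-Hochberg adjusted).

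To compare the surgeries over all members, each zone was tested across all genes with edgeR, and a gene was called where p was at most 0.05 and the groups differed at least 2-fold. In the scar zone 0 of the 10 members were called at the adjusted p-value, by edgeR, DESeq2 or limma, beside 0% of all genes in edgeR, 0.371% in DESeq2 and 0.0246% in limma on log2(TPM + 1). At the unadjusted p-value 1 of 10 was called higher (*CNN1*), beside 2.74% of the 14023 genes tested, and 0 were called lower, beside 0.613%. It was also the only member with an unadjusted p under 0.05 there, as 11.2% of all genes had in edgeR. With limma on log2(TPM + 1) *DES* had an unadjusted p of 0.0216 in the scar zone, at a log2 fold change of 0.53. In the border zone again 0 of 10 were called at the adjusted p-value by any of the 3 tools, beside 0.0146% of all genes in DESeq2 and 0% in edgeR and limma, and 1 of 10 was called higher at the unadjusted p-value (*CNN1*), beside 0.517% of 13728 genes, with 0 called lower, beside 0.277%. No other member had an unadjusted p under 0.05 there, which 3.78% of all genes had. Adjusted p-values of the members ran from 0.438 to 0.963 in the scar zone and from 0.988 to 0.995 in the border zone (edgeR quasi-likelihood test, Benjamini-Hochberg adjusted).

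The median log2 fold change of the members was 0.30 in the scar zone, beside 0.029 over all genes tested, with 8 positive and 2 negative. On the TPM scale the median over all genes was itself 0.15 in the scar zone, so that part of a member's TPM fold change was shared with genes at large. The border zone median was 0.053, beside 0.000027 over all genes, with 5 positive and 5 negative. No member had IR and sham values that did not overlap, whereas 2.03% of all genes had all IR pigs above all sham pigs and 2.85% all below in the scar zone, and 0.838% and 1.22% in the border zone. Fewer cells of a type and less RNA per cell cannot be told apart in such tissue samples.

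**Figure D2:**
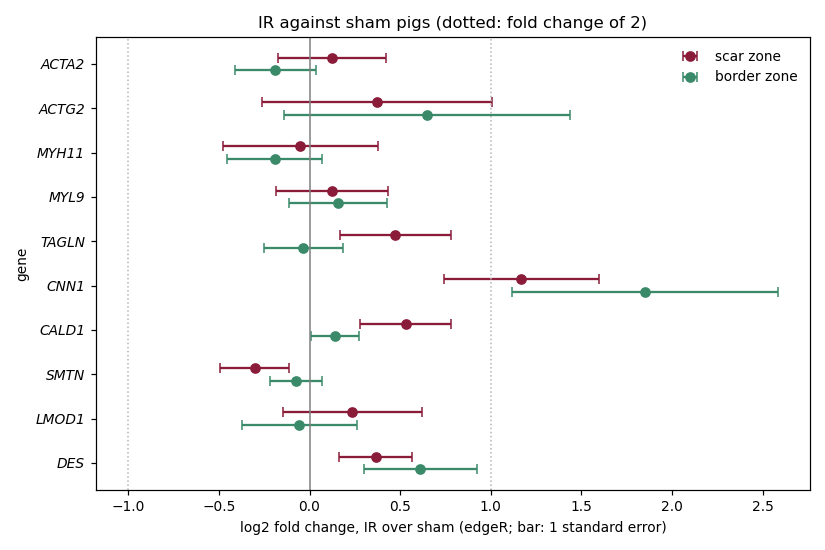
Log2 fold change of IR over sham pigs for each gene, from edgeR, in the scar and border zones. Bars give 1 standard error and dotted lines a fold change of 2. *CNN1* lies beyond the dotted line in both zones, at 1.17 and 1.85, and the other 9 genes lie between -0.30 and 0.65.

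**Figure D3:**
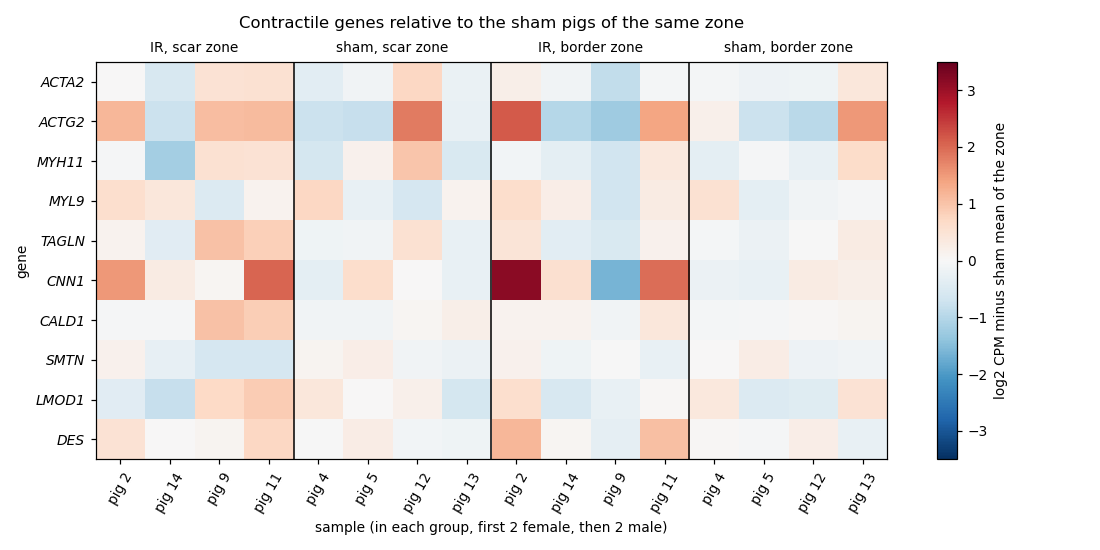
Log2 CPM of each gene in each sample minus the mean of the 4 sham pigs of the same zone, with red above and blue below that mean. The darkest field is *CNN1* in the border zone of IR pig 2, at 441 CPM. IR pig 9 is blue in most border zone fields, being the lowest of all 16 samples there for 7 genes, *ACTA2*, *TAGLN*, *CNN1*, *MYL9*, *ACTG2*, *CALD1* and *DES*.

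Scar and border zones were then compared within hearts. In IR pigs 0 of 10 members were called between the zones at the adjusted or the unadjusted p-value, beside 1.76% of 14170 genes at the unadjusted one (edgeR), and none had an unadjusted p under 0.05, which 4.35% of all genes had. The median log2 difference of scar over border zone was 0.49, beside 0.0086 over all genes tested. The largest value was 0.78 for *ACTG2* (standard error 0.74). It was 0.69 for *TAGLN* (standard error 0.33, unadjusted p = 0.0657), 0.64 for *MYH11* (standard error 0.36), 0.63 for *LMOD1* (standard error 0.41), 0.55 for *ACTA2* (standard error 0.28), 0.43 for *CALD1* (standard error 0.26) and 0.032 for *MYL9* (standard error 0.30). *CNN1*, *SMTN* and *DES* had negative values of -0.27, -0.12 and -0.23, and for these 3 genes the TPM scale gave 0.49, 0.014 and 0.022. The median over all genes was itself 0.13 on the TPM scale. In sham pigs, where no ischemia took place, again 0 of 10 were called, beside 0.101% of 13803 genes at the unadjusted p-value, none had an unadjusted p under 0.05, beside 0.819%, and the median was 0.20 beside -0.0081 over all genes. All 10 values were positive there, from 0.0035 for *DES* to 1.04 for *ACTG2* (standard error 0.71). With a pig left out 7 of the 10 turned negative at least once, and without sham pig 12 the values were -0.14 for *ACTA2*, -0.048 for *TAGLN*, -0.034 for *MYH11* and -0.28 for *ACTG2*.

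Both zones of a pig were from the same heart, so the zones were also compared with the pig as a block. With this pairing 0 of 10 members were called in IR or in sham pigs at either p-value, beside 1.64% and 0.203% of all genes at the unadjusted one. The log2 difference in IR pigs was 1.19 for *ACTG2* (standard error 0.53, unadjusted p = 0.0637) and 0.64 for *TAGLN* (standard error 0.30), and that of *CNN1* was 0.33. The spread lay between pigs of the same surgery. In IR pig 9 the scar zone was above the border zone by 1.54 for *ACTA2*, 1.71 for *TAGLN*, 1.59 for *MYH11*, 2.06 for *CNN1* and 3.26 for *ACTG2* on the log2 scale. Sham pig 12, also a male, had scar zone values above its border zone by 1.07 for *ACTA2*, 1.62 for *MYH11* and 3.69 for *ACTG2*. These 2 pigs thus had the largest zone differences in the smooth muscle actins and myosin heavy chain, 1 from each surgery. In sham pig 13 the same 3 genes lay lower in the scar zone, with differences of -0.46, -0.76 and -0.85.

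The IR effect itself was compared between the zones, as the effect in the scar zone minus that in the border zone over all 16 samples. Of the 10 members 0 were called, beside 1.37% of 14278 genes at the unadjusted p-value, and none had an unadjusted p under 0.05 in edgeR, beside 2.22% of all genes. The values ran from -0.66 for *CNN1* (standard error 0.93) to 0.52 for *TAGLN* (standard error 0.40), with a median of 0.066 beside 0.012 over all genes. With the pig as a block 0 of 10 were called at the unadjusted p-value, beside 1.52%, and *CNN1* was at -0.027 (standard error 0.59). The within-pig difference of *SMTN* was -0.15 ± 0.25 after IR and 0.11 ± 0.073 after sham surgery (SD, n = 4 each), with the lowest p of the 30 permutation tests on log2 CPM (two-sided exact permutation test, p = 0.0857, and 0.949 adjusted over the 30), and 3 of 4 IR pigs below all sham pigs. On the log2(TPM + 1) scale this difference between the surgeries was -0.10 instead of -0.26 (exact permutation test, p = 0.543), with 1 IR pig below all sham pigs. The median zone dependence over all genes was 0.12 in limma on that scale. The smallest p that 4 pigs against 4 allow is 0.0286.

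**Figure D4:**
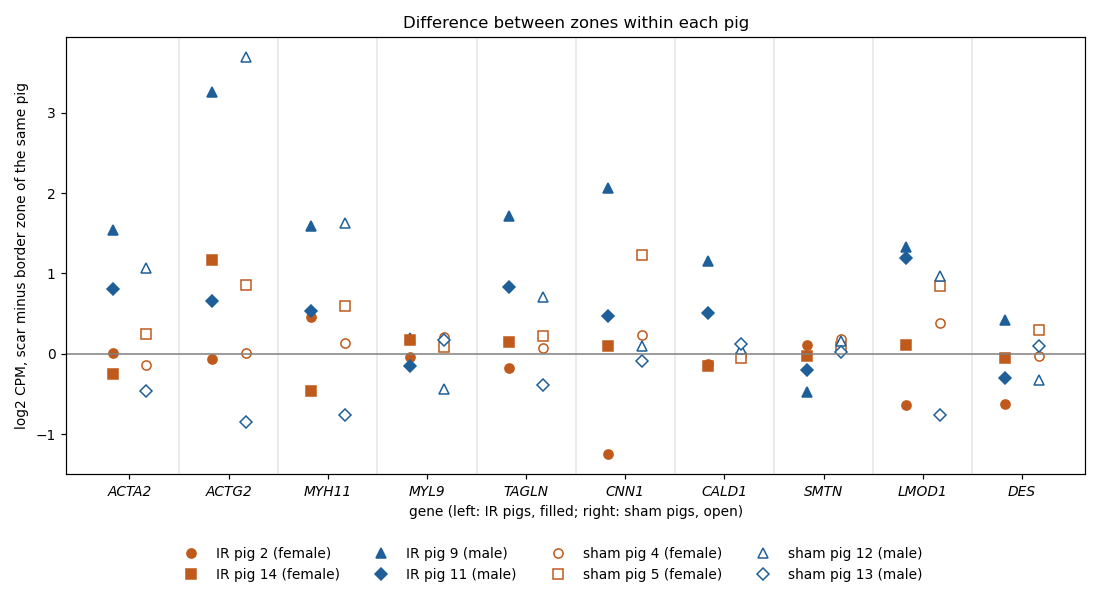
Scar zone minus border zone of the same pig, in log2 CPM, for each gene. Filled points are IR pigs and open points sham pigs, coloured by sex. IR pig 9 and sham pig 12 stand highest for *ACTA2*, *ACTG2* and *MYH11*, and the points of *MYL9* and *SMTN* lie close to 0.

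Since each surgery had 2 females and 2 males, the IR effect was compared between the sexes, with 2 pigs per sex and surgery. Among IR pigs the males were also sequenced deeper than the females. Scar zone totals were 36509911 and 34251150 in IR males, and 17595342 and 15427663 in IR females. Border zone totals were 33521418 and 49045206 in IR males, and 21166014 and 17379477 in IR females. Sex and depth were thus joined among IR pigs, and the part of depth in these values was not tested. In the scar zone 0 of 10 members were called at the adjusted p-value in edgeR, beside 1.5% of 14023 genes, and 1 of 10 was called at the unadjusted p-value (*LMOD1*), beside 9.03%. An unadjusted p under 0.05 was given to *LMOD1* and *CALD1*, and to 18.7% of all genes. For *LMOD1* the effect in males exceeded that in females by 1.78 on the log2 scale (standard error 0.44, unadjusted p = 0.00352, adjusted p = 0.0870, edgeR quasi-likelihood test, Benjamini-Hochberg adjusted). Male IR pigs lay above both male sham pigs, with a mean difference of 1.00 in log2 CPM, and female IR pigs lay below both female sham pigs, at -0.81. For *CALD1* the difference between the sexes was 0.73 (standard error 0.18, unadjusted p = 0.00347, edgeR adjusted p = 0.0865), with a mean difference of 0.81 in males and 0.090 in females. *TAGLN* had the same value of 0.73 with a larger standard error of 0.37.

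DESeq2 gave *LMOD1* an adjusted p of 0.00898 and *CALD1* 0.00993, the latter under a fold change of 2, where DESeq2 called 5.07% of all genes. Without the filter on low counts edgeR gave *LMOD1* an adjusted p of 0.0496 and called 2.31% of all genes. On the TPM scale limma gave *CALD1* a difference of 1.42 (limma adjusted p = 0.0248), where limma called 3.56% of all genes and the median over all genes was 0.38. Without IR pig 14 the values were 1.58 for *LMOD1* and 0.71 for *CALD1*, and those of *ACTA2* and *MYH11* were -0.079 and -0.039, against 0.19 and 0.43 with all pigs. In the same comparison 8 of the 12 fibroblast markers were called higher at the adjusted p-value in edgeR, beside 156 of 14023 genes. Leaving out a pig leaves 1 pig in a sex and surgery, which is then assumed to vary like the other groups. Under most of these fits fewer of the markers were called higher at the adjusted p-value, and under all of them fewer of all genes were. The part of fibroblast RNA in the values of *LMOD1*, *CALD1* and *TAGLN* was not tested. In the border zone 0 of 10 members were called between the sexes, beside 0.0146% of 13728 genes at the adjusted and 4.12% at the unadjusted p-value, with 9 of 10 values negative and a median of -0.33 beside -0.0036 over all genes. None had an unadjusted p under 0.05 in edgeR, which 6.89% of all genes had.

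The regulators of these genes were looked at in the same comparisons. Of SRF and its coactivators, 0 of 4 were called in the scar or border zone. Of all genes, 2.74% were called higher and 0.613% lower at the unadjusted p-value in the scar zone. The border zone shares were 0.517% and 0.277%. *MYOCD*, which encodes myocardin of smooth muscle and heart, averaged 29.7 ± 7.28 CPM in scar tissue after IR, against 41.4 ± 8.22 CPM after sham surgery (SD over 4 pigs each), a log2 fold change of -0.48 (standard error 0.20, unadjusted p = 0.0372, edgeR adjusted p = 0.438). *SRF* was at -0.26 (standard error 0.23), *MRTFA* at 0.26 (standard error 0.17) and *MRTFB* at -0.17 (standard error 0.13) on the same log2 scale. All 4 border zone values lay between -0.15 and -0.0018.

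Of 37 further smooth muscle contractile and cytoskeletal genes, 34 were listed and tested. In the scar zone 1 of 34 was called higher and 0 lower at the unadjusted p-value, beside 2.74% and 0.613% of all genes, and none at the adjusted one, with a median log2 fold change of 0.12. The gene called was *KCNMA1*, the pore subunit of the large-conductance calcium-activated potassium channel, at a log2 fold change of 2.30 (standard error 0.74). Pigs 9 and 11, the IR males, held 10.8 and 5.15 CPM, and the level was between 0.545 and 1.27 CPM in all other scar zone samples. *FHL1*, a LIM protein of striated muscle, was the 1 of 34 called in the border zone (beside 0.517% of all genes called higher), at a log2 fold change of 1.06 (standard error 0.39), and was at 0.84 (standard error 0.20) in the scar zone. *MYLK*, the kinase that phosphorylates the myosin light chain, was at 0.67 (standard error 0.27, unadjusted p = 0.0347) in the scar zone and 0.47 (standard error 0.23) in the border zone. Neither value of *MYLK* reached a fold change of 2. Zyxin (*ZYX*), of focal adhesions, was at 0.45 (standard error 0.20) and *PPP1R12B*, a myosin phosphatase subunit, at -0.40 (standard error 0.16), both with an unadjusted p under 0.05.

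Between zones of IR pigs and in the zone dependence of the IR effect, *KCNMA1* was also the 1 of 34 called at the unadjusted p-value, beside 1.76% and 1.37% of all genes, and in sham pigs 0 of 34 were called, beside 0.101%. Between the sexes in the scar zone 5 of 34 were called at the unadjusted p-value, beside 9.03% of all genes, and 3 at the adjusted p-value, beside 1.5%. The 3 were *PDLIM3*, a Z-disc protein, at -2.58 (standard error 0.38), the intermediate filament gene *VIM* at 1.505 (standard error 0.27) and the actinin gene *ACTN1* at 1.12 (standard error 0.21), with adjusted p of 0.0273, 0.0452 and 0.0485 (edgeR). Again with 1 pig left in a sex and surgery, the 3 adjusted calls were lost in most fits. Fewer of all genes were called in every one of these fits. Of the 4 other actins, 0 were called between IR and sham pigs in either zone. The shares of all genes called higher and lower at the unadjusted p-value were 2.74% and 0.613% in the scar zone. In the border zone they were 0.517% and 0.277%. The cardiac actin *ACTC1* was at -0.47 (standard error 0.33) and the skeletal actin *ACTA1* at 0.24 (standard error 0.29) in the scar zone, and the cytoplasmic actins *ACTB* and *ACTG1* at 0.20 and 0.27.

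Markers of other cells were measured beside the members. The 12 fibroblast markers, among them *COL1A1*, *POSTN* and *CTHRC1*, summed to between 4932 and 33883 CPM in the IR scar zone and between 5820 and 7755 CPM in the sham scar zone. Pigs 9 and 11, the IR males, had the 25117 and 33883 CPM, whereas the IR females 2 and 14 had 6155 and 4932 CPM. Of the 12, 4 were called higher at the unadjusted p-value in the scar zone, beside 2.74% of all genes, and 0 at the adjusted one, with a median log2 fold change of 1.07 against 0.30 for the contractile members. *TAGLN*, *CALD1* and *LMOD1* were highest in the scar zone of the same male IR pigs, and *CNN1* and *DES* in pigs 2 and 11, of which only pig 11 had a high fibroblast sum. Border zone fibroblast sums were 5430 to 8215 CPM in IR and 5448 to 7750 CPM in sham pigs.

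The 10 pericyte markers summed to between 1083 and 1247 CPM in the IR scar zone and between 1105 and 1308 CPM in the sham scar zone. The 9 endothelial markers summed to between 941 and 1285 CPM in the IR and 1149 and 1288 CPM in the sham scar zone. Cardiomyocyte markers, 10 of 12 listed, summed to 63034 to 85103 CPM in the IR and 75686 to 103998 CPM in the sham scar zone. Leucocyte markers were at 180 to 395 CPM in the IR and 132 to 261 CPM in the sham scar zone, IR pigs 9 and 11, both male, having the 395 and 359 CPM. The 5 of 8 epicardial and mesothelial markers listed summed to 49.9 and 44.7 CPM in the scar zone of the same pigs, which had the highest *TAGLN*, *CALD1* and *LMOD1*, and to between 11.6 and 23.5 CPM in the other 14 samples. Of the epicardial and mesothelial markers *CALB2*, *KRT18* and *LRRN4* were at 0 in some samples, and the others listed were not. The part of these cells in the differences between pigs was not tested.

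**Figure D5:**
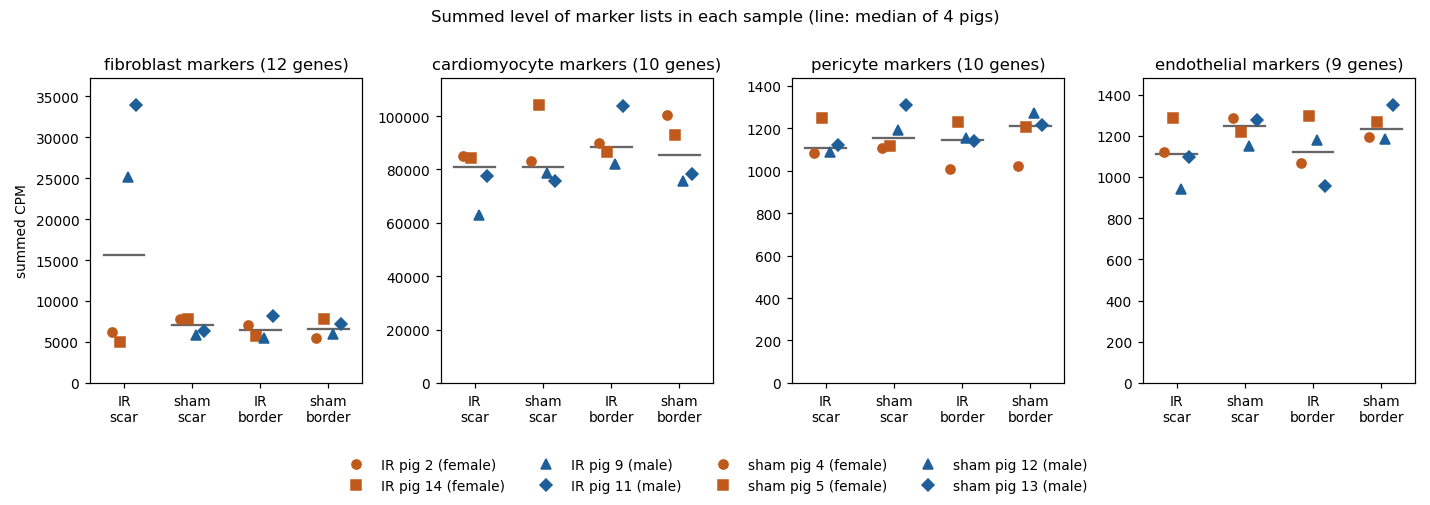
Summed CPM of fibroblast, cardiomyocyte, pericyte and endothelial markers in each sample, with a line at the median of 4 pigs. The male IR pigs 9 and 11 stand apart in the scar zone for fibroblast markers, at 25117 and 33883 CPM, and the other 14 samples lie between 4932 and 8215 CPM.

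Which genes varied most like the members was described by the Pearson correlation of log2 CPM over the 16 samples of 8 pigs, among 12167 genes listed by symbol. For *ACTA2* the highest were *MYH11* (r = 0.903), *TAGLN* (0.899), *NOV* (0.849), *ACTG2* (0.830) and *CDH3* (0.83). For *MYH11* they were *ACTA2* (0.903), *KCNMB1* (0.90), *MRAP2* (0.876), *GLDN* (0.833) and *TAGLN* (0.823), *KCNMB1* being the smooth muscle subunit of the channel formed by *KCNMA1*. Hence 3 of the 5 genes most like *ACTA2* were other members. For *DES* the highest were *ANKRD2* (0.928), *CNN1* (0.909), *ATG3* (0.908), *TUBB2B* (0.894) and *FLNC* (0.891), and *ANKRD2* and *FLNC* encode proteins of the striated muscle sarcomere. *CNN1*, looked at after its values were seen, was most like *FHL1* (0.943), *VASH2* (0.939), *VCL* (0.925) and *ANKRD2* (0.921). *ACTA2* had r = 0.475 with *CNN1* and 0.239 with *DES*. The samples share pigs and differ in depth, and the correlations are given as a description.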

How the data were processed

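The authors trimmed reads of stranded polyadenylated RNA libraries with Trimmomatic 0.33, aligned them with HISAT2 2.0.5 and quantified transcripts with kallisto 0.43.1 on Ensembl pig cDNA (versions from the submitters' processing notes). The genome build is not given in the sources used here. The authors deposited estimated counts, not scaled for depth, and TPM, scaled for transcript length and depth. Pig, surgery, zone and sex came from the sample labels.

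After rounding to whole numbers, the estimated counts were tested in R 4.3.3 with edgeR 4.0.16 (TMM, filterByExpr with minimum count 10 and minimum total 15, quasi-likelihood test, Benjamini-Hochberg adjustment over all genes tested). Thresholds were those of the study, p of at most 0.05, adjusted or unadjusted, and a fold change of at least 2. Log2 CPM used a prior count of 2. TPM served to compare levels between genes. Standard errors are the log2 fold change divided by the root of F. Totals ran from 15427663 to 49045206 per sample, and counting error was largest for *ACTG2* and *LMOD1*, with 24 and 55 estimated counts in their lowest samples.

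Alternatives were DESeq2 1.42.0, upper-quartile scaling, no filter, limma 3.58.1 on log2(TPM + 1) and log2(TPM + 0.1), sex as a covariate, 1 factor of unwanted variation from 5000 control genes, 1 fit of all 16 samples, the pig as a replicate block and leaving out each pig. The block joins both zones of an animal, whose deviations from the group means correlated by 0.353 to 0.690 over 14311 genes. IR and sham pigs share no animal, so no block was possible there. The scripts were tested on simulated data.

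All 10 members, the SRF regulators and other actins were named, and from other lists up to 4 genes past the unadjusted threshold or, with none, up to 2 of the lowest p, of which those that bear on the members are given. The members and lists were chosen with earlier results of these data known. Genes listed by Ensembl ID alone were left unnamed.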

Additional observations from a re-analysis of the deposited data

Results flagged for a closer look

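The *TAGLN* value of sham pig 12 in the scar zone, 152 CPM, stood apart from the other 3 sham pigs (88.7 to 96.7 CPM). The *ACTG2* value of IR pig 14 in the scar zone, 3.26 CPM, stood apart from the other 3 IR pigs (11.9 to 12.6 CPM). Their gaps to the nearest pig were 0.839 and 0.957 of the group's range on the log2 scale, above the limit of Dixon's test for 4 samples. Of 40 groups looked at, 2 were found in this way, and chance gives about 1 in 20.

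The IR effect in the scar zone differed between males and females at the unadjusted p-value for *LMOD1*, by 1.78 on the log2 scale, and for *CALD1*, by 0.73. Neither passed the adjusted threshold in edgeR, at adjusted p of 0.0870 and 0.0865, and 18.7% of all genes had an unadjusted p of at most 0.05 in this comparison.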

How the results depend on the processing

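Of 920 values of single members under an alternative, 825 kept their direction and their side of the adjusted threshold, 91 changed sign (64 with a pig left out, 27 otherwise), and 4 passed the adjusted threshold where the reported value did not. The cause was not tested. The count of members called higher after IR on the unadjusted p was 0 in the scar zone with 1 fit of all 16 samples. Of 14278 genes, 454 were called higher in that fit. In the border zone the count was 0 with limma on log2(TPM + 1) and log2(TPM + 0.1), beside 21 and 32 of 12011 genes. It was also 0 there with sex as a covariate or with 1 factor of unwanted variation, beside 58 and 47 of 13728 genes. With a pig left out this count was 0 to 1 in the scar zone, in the border zone and between zones in IR and in sham pigs, beside 214 to 686, 29 to 126, 67 to 378 and 6 to 25 of all genes. In the scar zone it was 0 without IR pig 2 or 11 or sham pig 4 or 13, and without sham pig 12 the 1 gene was *ACTG2* in place of *CNN1*. In the border zone it was 0 without IR pig 2 or sham pig 4, 5 or 13. Between zones the 1 gene was *LMOD1* without IR pig 2, and *ACTG2* without sham pig 13. For the sexes in the scar zone, 1 member passed the adjusted threshold with DESeq2 and without the filter (*LMOD1*) and with limma on either TPM scale (*CALD1*). At the unadjusted p-value 3 were higher with limma (1188 and 1404 of 12173 genes on the 2 TPM scales), and with a pig left out, which leaves 1 pig in a sex and surgery, 1 to 2 were higher and 0 to 1 lower (652 to 1005 and 352 to 475 of all genes). Border zone counts were 0 to 2 lower, the 2 without IR pig 11 being *ACTA2* and *CNN1*, beside 508 of 13876 genes.

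With limma on log2(TPM + 1) and log2(TPM + 0.1), the sign changed for *MYH11* between IR and sham pigs in the scar zone (0.13 on both scales) and for *CALD1* in the border zone (-0.025 on both). For the zone dependence of the IR effect these values were 0.12 and 0.13 for *CNN1*, 0.19 and 0.19 for *MYL9*, 0.42 and 0.52 for *ACTG2*, and 0.0017 and 0.0018 for *DES*. For scar over border zone in IR pigs they were 0.49 and 0.50 for *CNN1*, 0.014 on both scales for *SMTN* and 0.022 on both for *DES*. For the sex dependence they were 0.24 on both for *MYL9* and 0.25 on both for *SMTN* in the scar zone, and -0.011 on both for *SMTN* in the border zone. The medians over all genes on the 2 scales were 0.15 and 0.17 between IR and sham pigs in the scar zone. In the border zone they were 0.024 and 0.025. They were 0.12 and 0.13 for the zone dependence, and 0.13 and 0.14 for scar over border zone in IR pigs. For the sexes they were 0.38 and 0.43 in the scar zone, and -0.13 and -0.15 in the border zone. Part of a member's shift on these scales was thus shared with genes at large. With the pig as a replicate block, the sign changed for *MYL9* (0.049) and *ACTG2* (0.36) in the zone dependence and for *CNN1* in IR pigs (0.33), and the pairing changed no call of a member.

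With each pig left out in turn, these log2 values changed sign. Between IR and sham pigs in the scar zone the ranges were -0.013 to 0.42 for *ACTA2*, -0.24 to 0.36 for *MYH11*, -0.051 to 0.42 for *MYL9* and -0.040 to 0.46 for *LMOD1*. Between IR and sham pigs in the border zone the ranges were -0.24 to 0.11 for *TAGLN*, -0.41 to 0.067 for *MYH11*, -0.028 to 0.36 for *MYL9*, -0.11 to 1.45 for *ACTG2*, -0.15 to 0.023 for *SMTN* and -0.32 to 0.13 for *LMOD1*. For the zone dependence of the IR effect the ranges were -1.08 to 0.15 for *CNN1*, -0.28 to 0.67 for *MYH11*, -0.13 to 0.070 for *MYL9*, -1.25 to 1.07 for *ACTG2* and -0.053 to 0.72 for *LMOD1*. For scar over border zone in IR pigs the ranges were -0.67 to 0.54 for *CNN1* and -0.038 to 0.092 for *MYL9*. For scar over border zone in sham pigs the ranges were -0.14 to 0.46 for *ACTA2*, -0.048 to 0.36 for *TAGLN*, -0.034 to 0.91 for *MYH11*, -0.040 to 0.16 for *MYL9*, -0.28 to 2.02 for *ACTG2*, -0.014 to 0.049 for *CALD1* and -0.11 to 0.12 for *DES*. For the sex dependence in the scar zone the ranges were -0.22 to 0.75 for *ACTA2*, -0.62 to 1.44 for *CNN1*, -0.13 to 1.36 for *MYH11*, -0.71 to 0.29 for *MYL9*, -2.04 to 0.027 for *ACTG2* and -0.41 to 0.063 for *SMTN*. For the sex dependence in the border zone the ranges were -4.47 to 0.034 for *CNN1*, -0.90 to 0.23 for *MYH11*, -0.86 to 0.11 for *MYL9*, -3.65 to 0.64 for *ACTG2*, -0.38 to 0.15 for *CALD1*, -0.86 to 0.35 for *LMOD1* and -1.04 to 0.43 for *DES*.

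Depth limited *ACTG2* and *LMOD1* most, with 24 and 55 estimated counts in their lowest samples. The groups held 4 pigs, and 2 per sex and surgery.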
